A study of Danio rerio with 36 samples.

Results

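Transcripts were counted in retinal pigment epithelium (RPE) of zebrafish at 1 month after fertilization, in 3 libraries of lrp2-/- mutants (numbered 12, 13 and 21) and 3 libraries of wild-type fish (11, 12 and 13; ZDR in the labels). These are 6 of the 36 libraries of the series. All genes of the deposited table were in scope, 31916 identifiers, of which 21064 had enough counts in the 6 libraries to be tested. The retina, and the sclera with choroid, of the same genotypes and age served for comparison, with 3 libraries in each group. The fish were housed under a daily light and dark cycle. By its title the study is about how cleavage of LRP2 in the RPE bears on BMP signalling and, through it, on the size and refraction of the eye. The labels give neither the allele nor the kind of mutation, nor whether wild type and mutants were siblings. Nor is it said if libraries of 1 group came from different fish, or how many eyes went into each. Genotype and family can therefore not be told apart, and the p-values rest on a spread between libraries that may be technical.

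Lrp2, or megalin, is a very large receptor of the LDL receptor family that takes up ligands from outside epithelial cells by endocytosis, among them vitamin-binding proteins, lipoproteins and secreted signals. Its loss leads to enlarged eyes in zebrafish and to severe myopia in humans. The RPE is a pigmented single layer of cells between the photoreceptors and the choroid. It regenerates the chromophore of visual pigment in the visual cycle, engulfs the tips of photoreceptors, moves ions, water and nutrients, and passes signals between the retina and the sclera.

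The 6 RPE libraries held 20037167 to 23224099 expected counts, and 24937 to 25477 genes had at least 1 count in each. RPE markers were high in all of them. TYRP1 (ENSDARG00000056151), an enzyme of melanin synthesis, lay at 4569.6, 4091 and 3734 TPM in wild type 11, 12 and 13 and at 4328, 4484 and 5389 TPM in mutants 12, 13 and 21, against means of 74.4 TPM in retina and 108 TPM in sclera with choroid. TPM are levels scaled to 1 total per library and corrected for gene length.

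Other tissue was present in unequal amounts. Rod genes, 49 in the list, summed to 3724, 5911 and 18318 TPM in wild type 11, 12 and 13, which is 6.12, 9.72 and 30.1% of their sum in wild-type retina, so wild type 13 stood apart. In mutants 12, 13 and 21 the rod sum was 2763, 3652 and 6720.3 TPM, or 5.31, 7.02 and 12.9% of mutant retina. Genes of corneal and surface epithelium summed to 19179, 17301 and 16673 TPM in wild type and 40237, 14623 and 6232 TPM in mutants, which is 13.8, 12.4 and 12.0% and 32.2, 11.7 and 4.99% of sclera with choroid of the same genotype. Mutant 12 was the highest and mutant 21 the lowest of the 6 in this sum, and their levels of the basal keratin krt5 were 8565 and 150.3 TPM. Cone genes ranged from 1194 TPM in wild type 11 to 4908 TPM in mutant 12. None of the 3 sums separated the groups. Genes of fibroblast matrix gave larger shares of sclera with choroid, 33.6, 45.4 and 29.6% in wild type and 50.8, 37.9 and 26.1% in mutants. Cartilage genes gave 35.3 to 99.3% over the 6 libraries. Those of inner retina gave 38.9, 37.9 and 43.2% and 44.9, 42.4 and 43.0% of retina. Amounts given below at the rod or epithelium share would be larger at these shares. Cone genes gave 1.56 to 5.73% of retina over the 6 libraries, so retina amounts at the mean rod share would be smaller at the mean cone share. Which share holds was not tested. Mutant 21 was also no closer to its own group than to wild type: its median correlation across genes, on the log2(TPM + 1) scale, was 0.931 with the other mutants and 0.932 with wild type, where each of the other 5 was closer to its own group.

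**Figure D1:**
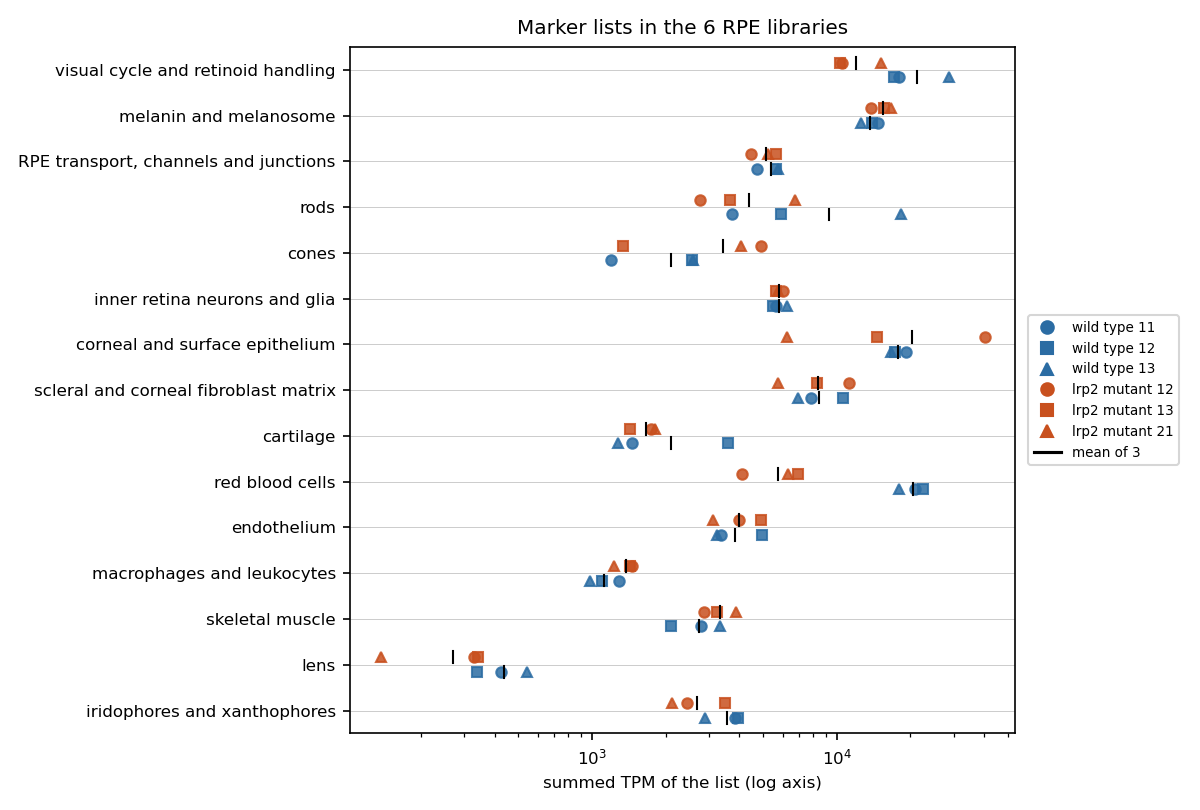
Summed TPM (log axis) of 15 lists of marker genes in each of the 6 RPE libraries, wild type in blue and lrp2 mutants in orange, with a black tick at the mean of 3. The sums for the visual cycle and for red blood cells do not overlap between the genotypes, while the rod sum is highest in wild type 13 and the epithelium sum in mutant 12.

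To ask what differed between the genotypes, counts of 21064 genes were fitted with edgeR, and a gene was called at a Benjamini-Hochberg adjusted p under 0.05. In mutant RPE 121 genes were higher (0.574% of those tested) and 168 lower (0.798%), 289 in all (1.37%). The CPM (counts scaled to 1 library size, with TMM factors, and not corrected for gene length) of the groups did not overlap for 5018 genes (23.8%), 2355 of them higher (11.2%) and 2663 lower (12.6%). The median log2 fold change over all tested genes was 0.03. DESeq2, run as an alternative, called 782 genes higher (3.30% of the 23666 that it gave an adjusted p) and 984 lower (4.16%), 1766 in all (7.46%). On the log2(TPM + 1) scale, fitted with limma, the balance turned, with 242 genes called higher and 159 lower, and the median over all genes moved to 0.16. Every fold change below is mutant over wild type, with its SE, for 3 against 3 libraries. Genes whose mean TPM was highest in RPE, of the 3 tissues, gave 143 calls among 5960 (2.399%), 45 higher and 98 lower. Genes highest in retina gave 85 calls among 10431 (0.815%), and genes highest in sclera with choroid 61 among 4673 (1.31%). These classes were set from mean TPM that included the RPE libraries tested here. A gene's own change in RPE can therefore place it in a class, so the shares describe these libraries and are no independent evidence.

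Which libraries entered the fit changed the number of calls. There were 549 without mutant 21, but 4 without wild type 11, 42 without wild type 12, 13 without wild type 13, 22 without mutant 12 and 27 without mutant 13. Leaving out wild type 13 and mutant 21 together, which was chosen after the data had been seen, gave 60 calls, of which 40 were among the 289. With the summed rod level of each library as a covariate there were 39 calls, 35 of them among the 289, and with the epithelium level 446, of which 262 were shared. Of the 68 called genes that were followed by name, all kept their direction in every alternative that fitted them, 63 were called without mutant 21, and 2, SERPINE3 and nlrc11, were called whichever library was left out. These genes were chosen from calls in the same libraries, many for separate groups, so a kept direction was favoured by the choice.

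The mutated gene itself, listed as LRP2, was measured at 11.0, 10.2 and 10.9 TPM in wild-type RPE 11, 12 and 13 and at 6.24, 12.4 and 9.64 TPM in mutants 12, 13 and 21. Mutant 12 was the lowest and mutant 13 the highest, so the groups overlapped, and the log2 fold change of -0.36 ± 0.25 was not called (edgeR adjusted p = 0.528). The level thus gives no check of the labels, since a mutation can leave the transcript in place. In retina, where the gene was more abundant (20.7 TPM in wild type and 15.4 TPM in mutants), it was lower in mutants (log2 fold change -0.46, edgeR adjusted p = 0.00460). The other copy, lrp2b, lay at 0.19 CPM or less in all 6 RPE libraries and was not tested.

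Partners of megalin and other receptors of its family went both ways. Among the 38 tested of 44 genes, 0 were higher and 1 lower by edgeR (2.63%, against 1.37% of all genes). The median was 0.04, against 0.03 for all genes. DESeq2 called 3 higher and 1 lower, 10.3% of 39, against 7.46% of all genes. The groups did not overlap for 12 of the 38 (31.6%, against 23.8% of all genes), 7 higher and 5 lower. DAB2, the adaptor that links megalin to clathrin, lay at 144, 159 and 146 CPM in wild type and 176, 293 and 233 CPM in mutants. Every mutant was above every wild-type library, but the difference of 0.64 ± 0.20 was not called (edgeR adjusted p = 0.176). CLCN5 (ENSDARG00000019693), a chloride and proton exchanger of endosomes, did not overlap either (63.1, 78.4 and 74.5 against 87.1, 90.8 and 89.2 CPM) and was not called (log2 fold change 0.31 ± 0.11, edgeR adjusted p = 0.248). The member called was apoa1b, an apolipoprotein of high-density lipoprotein, at 14.4, 6.18 and 18.3 CPM in wild type and 0.847, 0.800 and 1.86 CPM in mutants. It fell by 3.46 ± 0.54 on the log2 scale (edgeR adjusted p = 0.0460), and it was called in 1 of the 6 fits that leave out a library, the fit without mutant 21.

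Genes beside lrp2a were also examined, since a mutant line can differ from wild type around the mutated gene for reasons of ancestry. In the gene order of assembly GRCz12tu, 0 of the 10 nearest tested neighbours, 1 of the 50 nearest and 2 of the 98 nearest were called, against 175 of all 13640 tested genes that could be placed. The 2 were smarcal1, higher by 1.29 on the log2 scale (edgeR adjusted p = 0.0260), and PPP1R1C, lower by 1.23 (adjusted p = 0.0454). They were named after their values were seen. The neighbour abcb11a, a transporter gene, lay at 3.87, 3.37 and 2.201 CPM in wild type and 0.706, 0.800 and 0.620 CPM in mutants (log2 fold change -2.14 ± 0.36), and its edgeR adjusted p of 0.0509 missed the threshold.

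Genes of the visual cycle and of retinoid handling lay lower in mutant RPE as a group, mostly without passing the test for single genes. Their 47 members summed to 17876, 17190.4 and 28730.3 TPM in wild type 11, 12 and 13 and to 10473, 10289 and 15215 TPM in mutants 12, 13 and 21, with every mutant below every wild-type library. Of 46 tested, 0 were called higher and 2 lower (4.35%, against 1.37% of all genes). A negative fold change was found for 34 of the 46, and for 9918 of all 21064 genes. The groups did not overlap for 21 (45.7%, against 23.8% of all genes), 17 lower and 4 higher. The median log2 fold change was -0.43. The log2 ratio of the mean sums was -0.83 with all libraries and -0.55 without wild type 13, whose sum was the highest. In libraries made from tissue, fewer RPE cells and less RNA per cell cannot be told apart. For the melanin and melanosome list, also of RPE, the log2 ratio of the mean sums was 0.17 in TPM and 0.03 in TMM-scaled CPM. For the visual cycle list it was -1.05 in such CPM. Of the 40 tested melanin and melanosome genes, 25 had a negative fold change. Why the lists differ was not tested.

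RPE65 (ENSDARG00000007480), the isomerase that makes 11-cis-retinol, lay at 1861, 2006 and 6003 TPM in wild type and at 1055, 1108 and 1178 TPM in mutants. Wild type 13, the library with the most rod transcripts, was far above the other 2 wild-type libraries, and all 3 mutants were below all 3 wild-type libraries. The log2 fold change of -1.75 ± 0.50 was not called (edgeR adjusted p = 0.153) and was -0.95 without wild type 13. At the mean rod shares, the retina level of the gene amounts to 3.33 TPM of the wild-type mean and 2.16 TPM of the mutant mean.

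The retinaldehyde-binding protein rlbp1b, which carries 11-cis-retinoids in RPE, was measured at 3622, 3587 and 5487 TPM in wild type and 1228, 1354 and 2604 TPM in mutants. Mutant 21 was the highest mutant and still below every wild-type library (log2 fold change -1.44 ± 0.38, edgeR adjusted p = 0.135). The RPE opsin RGR, which binds all-trans-retinal, lay at 548, 595 and 1225 TPM against 135, 138 and 318 TPM. The same mutant was again nearest to wild type, and the difference of -2.17 ± 0.52 was not called (edgeR adjusted p = 0.107). The other RGR copy, rgrb, the most abundant of the list, lay at 4991, 4905 and 6783 and 3796, 3564 and 5866 TPM, with overlap (log2 fold change -0.50 ± 0.28, edgeR adjusted p = 0.430).

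STRA6, the cell-surface receptor that takes up retinol, was at 956, 1127 and 1862 TPM in wild type and 636, 612 and 937 TPM in mutants, a narrow gap between wild type 11 and mutant 21 (log2 fold change -1.02 ± 0.33, edgeR adjusted p = 0.198). The dehydrogenase rdh5, which oxidizes 11-cis-retinol, was at 489, 466 and 986 TPM against 317, 295 and 337 TPM. Its mutant libraries lay within a narrow range while wild type 13 exceeded the other 2 (log2 fold change -1.22 ± 0.33, edgeR adjusted p = 0.140). For rbp4l, a retinol-binding protein that is also in the list of cone genes, levels were 625, 429 and 1295 and 168, 227 and 306 TPM. Retina at the mean rod share amounts to 442 TPM of the wild-type and 209 TPM of the mutant mean. The cone sums gave other shares of retina, 1.75, 3.73 and 3.77% in wild type and 5.73, 1.56 and 4.74% in mutants. The part of carry-over in rbp4l is therefore uncertain and was not tested.

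Not every member lay lower. LRAT, which esterifies retinol for storage, was at 99.8, 144 and 103 TPM in wild type and 199, 184 and 162 TPM in mutants, each mutant above each wild-type library, with an uncalled log2 fold change of 0.49 ± 0.15 (edgeR adjusted p = 0.175). CRABP2 (ENSDARG00000030449), a carrier of retinoic acid, was at 43.2, 54.9 and 37.0 TPM against 93.2, 120 and 63.3 TPM (log2 fold change 0.86 ± 0.24, edgeR adjusted p = 0.141).

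The 2 called members both cleave carotenoids or resemble an enzyme that does. BCO2 (ENSDARG00000041715) lay at 12.8, 12.2 and 19.1 CPM in wild type 11, 12 and 13 and at 0.423, 0.941 and 1.28 CPM in mutants 12, 13 and 21, and fell by 4.04 ± 0.43 on the log2 scale (edgeR adjusted p = 0.0223). BCO2 (ENSDARG00000055722) lay at 122, 155 and 174 and 78.7, 76.5 and 80.0 CPM and fell by 0.94 ± 0.15 (edgeR adjusted p = 0.0463). Both gene groups were separate, the first by a wide margin. The first was called in 1 and the other in 0 of the 6 fits that leave out a library. DESeq2 called 13 members lower and 1 higher, 29.8% of 47, against 7.46% of all genes.

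**Figure D2:**
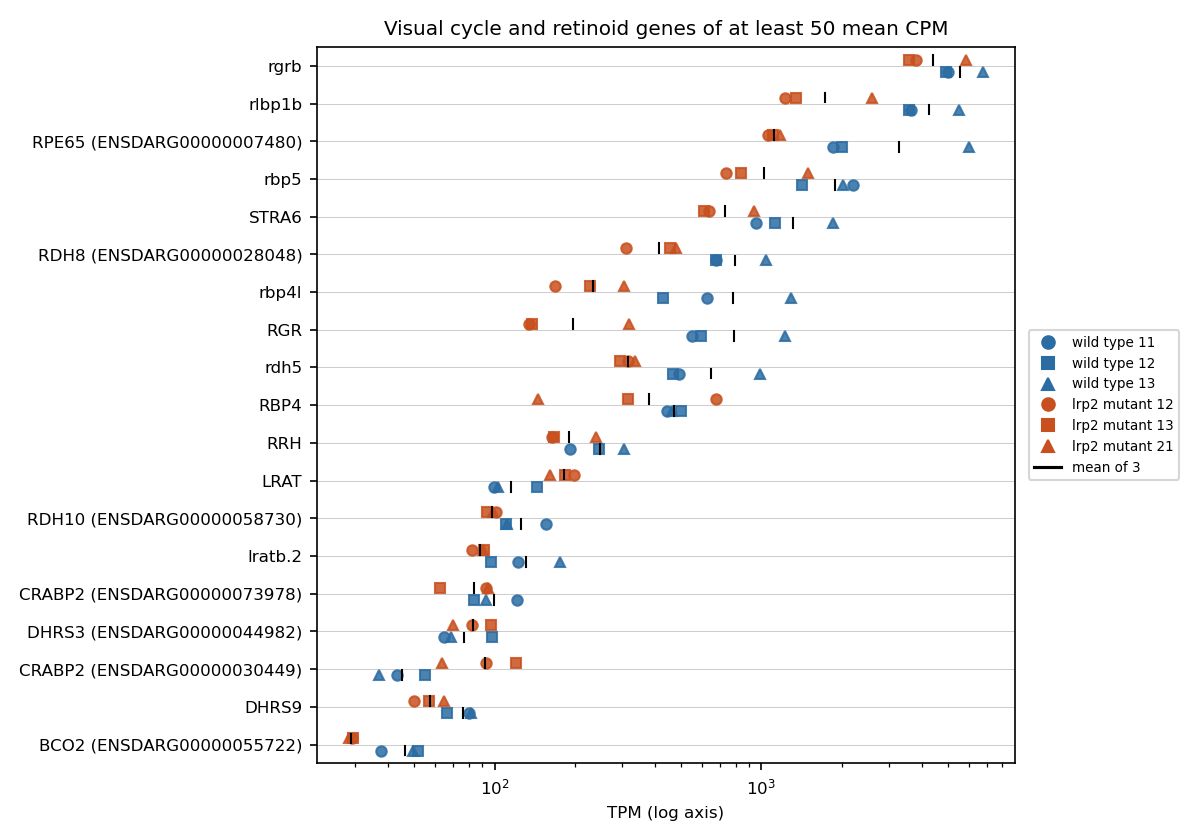
TPM (log axis) of the 19 visual cycle and retinoid genes with a mean of at least 50 CPM, in each of the 6 RPE libraries, wild type in blue and lrp2 mutants in orange, with a black tick at the mean of 3. Most mutant points lie left of the wild-type points, LRAT lies right, and wild type 13 is the highest library for RPE65, STRA6, RGR and rdh5.

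The summed level of pigment genes overlapped between the genotypes. The 41 genes of melanin synthesis and melanosomes summed to 14745, 13922 and 12509 TPM in wild type and 13845, 15618 and 16716 TPM in mutants. Of 40 tested, 0 were higher and 1 lower by edgeR (2.5%, against 1.37% of all genes), and the median was -0.05. DESeq2 called 1 higher and 2 lower, 7.5% of 40, against 7.46% of all genes. Of the premelanosome proteins, pmelb lay at 2119.6, 2493 and 1548 TPM in wild type and 2931, 3265 and 2806 TPM in mutants, without overlap but uncalled (log2 fold change 0.42 ± 0.16, edgeR adjusted p = 0.253). The called gene was kitlga, the ligand of the Kit receptor of pigment cells, at 119, 132 and 128 and 72.4, 86.0 and 73.4 CPM, with a fall of 0.71 ± 0.11 on the log2 scale (edgeR adjusted p = 0.0478). It was called in 0 of the 6 fits that leave out a library.

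Transport, junction and lysosome genes held 1 edgeR call in each list. Of 57 tested genes of RPE channels, pumps and junctions 0 were higher and 1 lower (1.75%, median -0.05). Of 60 genes of phagocytosis and lysosomes 0 were higher and 1 lower (1.67%, median 0.04). The share of all genes was 1.37%. The groups did not overlap for 14 of the transport and junction genes (24.6%), 5 higher and 9 lower. For phagocytosis and lysosomes it was 20 (33.3%), 10 higher and 10 lower, against 23.8% of all genes. DESeq2 called 2 higher and 4 lower in transport and junctions (10.3% of 58), against 7.46% of all genes. In phagocytosis and lysosomes it called 7 higher and 3 lower (16.7% of 60). PSAP, the precursor of the saposins that help lysosomes break down sphingolipids, was abundant, at 1270.0, 1200.3 and 1349.7 CPM in wild type and 690.1, 771 and 789.8 CPM in mutants. Its groups were tight and separate, and it fell by 0.76 ± 0.12 on the log2 scale (edgeR adjusted p = 0.0454). The sodium pump subunit gene atp1a1a.3 was near its floor in mutants, at 3.64, 5.04 and 6.92 CPM in wild type and 0.470, 0.0470 and 0.124 CPM in mutants (log2 fold change -4.58 ± 0.74, edgeR adjusted p = 0.0489). PSAP was called in 1 and atp1a1a.3 in 0 of the fits that leave out a library.

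Of the genes of BMP signalling, which the series title names, few passed the edgeR test. Among BMP ligands, receptors and antagonists DESeq2 called 3 higher and 6 lower, 16.4% of 55, against 7.46% of all genes. Of 54 tested by edgeR, 1 was higher and 1 lower (3.70%, against 1.37% of all genes), and the median was 0.03. Of the 54, 16 (29.6%) did not overlap between the groups, 6 higher and 10 lower, against 23.8% of all genes. BMP8A, a ligand, lay at 28.8, 25.3 and 33.4 CPM in wild type 11, 12 and 13 and at 6.35, 4.89 and 6.86 CPM in mutants 12, 13 and 21. All mutants were far below all wild-type libraries, a fall of 2.27 ± 0.19 on the log2 scale (edgeR adjusted p = 0.00943). It was called in 3 of the 6 fits that leave out a library.

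Of 37 tested genes that respond to BMP, 0 were called by edgeR and 1, lower, by DESeq2. In this list 13.5% did not overlap between the groups, against 23.8% of all genes, and the median was -0.11. ID1, a direct target that inhibits transcription factors, lay at 648, 558 and 525 CPM in wild type and 499, 526 and 520.1 CPM in mutants, with overlap. The receptor acvrl1 lay at 465, 769.8 and 585 and 399.7, 470.4 and 412 CPM, also with overlap (log2 fold change -0.51 ± 0.20, edgeR adjusted p = 0.279). Of 34 secretases, sheddases and their inhibitors, the enzymes that could cut a receptor such as Lrp2 from the surface, 0 were called by edgeR and 1, higher, by DESeq2, and the median was 0.19. At an unadjusted p under 0.05 the whole comparison gave 3541 genes.

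Among genes linked to eye growth or refraction, 1 of 59 was called by edgeR (1.69%, against 1.37% of all genes), the dopamine receptor DRD3. The groups did not overlap for 13 of the 59 (22.0%, against 23.8% of all genes), 8 higher and 5 lower. DESeq2 called 5 higher and 3 lower, 12.9% of 62, against 7.46% of all genes. Dopamine is a retinal signal studied for its part in eye growth. DRD3 lay at 0.311, 0.285 and 0.367 CPM in wild type and 9.17, 8.98 and 7.94 CPM in mutants. From a trace in wild type it rose by 4.74 ± 0.25 on the log2 scale (edgeR adjusted p = 0.00484), and it was called in 5 of the 6 fits that leave out a library, the exception being the fit without wild type 11. MYRF, a membrane-bound transcription factor gene tied to eye size, lay at 105, 147 and 155 and 160.0, 203 and 345 CPM, without overlap but uncalled (log2 fold change 0.80 ± 0.31, edgeR adjusted p = 0.268).

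Of 61 tested genes of secreted proteases, their inhibitors and matrix remodelling, 3 were higher and 0 lower by edgeR (median 0.22). That is 4.92%, against 1.37% of all genes. The groups did not overlap for 22 of the 61 (36.1%, against 23.8% of all genes), 14 higher and 8 lower. DESeq2 called 8 higher and 3 lower, 18.03% of 61, against 7.46% of all genes. SERPINE3, a serpin, was at 40.4, 36.7 and 30.9 CPM in wild type and 331, 372 and 399 CPM in mutants. The groups lay about an order of magnitude apart, a rise of 3.35 ± 0.16 on the log2 scale (edgeR adjusted p = 0.00348). It ran at 33.1 ± 4.41 TPM in wild type and 382 ± 23.6 TPM in mutants (SD, n = 3), while retina at the mean rod share amounts to 4.10 TPM and sclera with choroid at the mean epithelium share to 1.16 TPM of the mutant level.

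F10, the gene of coagulation factor X, was at 12.5, 18.7 and 18.2 and 219, 228 and 159 CPM. It rose by 3.62 ± 0.23 on the log2 scale (edgeR adjusted p = 0.00624) and was called in 4 of the 6 fits that leave out a library. Sclera with choroid of mutants held 166 TPM of it, so that sclera at the mean epithelium share amounts to 27.1 TPM of the mutant RPE mean of 168 TPM. ADAMTS1, a secreted protease that cuts proteoglycans, was at 64.6, 46.3 and 39.4 CPM in wild type and 198, 242 and 272 CPM in mutants, a rise of 2.24 ± 0.23 (edgeR adjusted p = 0.0210). The complement gene c4b varied widely among mutants, at 3.11, 3.14 and 4.45 and 70.13, 157 and 26.4 CPM, with mutant 13 the highest (log2 fold change 4.57 ± 0.69, edgeR adjusted p = 0.0423).

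Among genes of retinoic acid signalling 0 of 25 were higher and 1 was lower by edgeR, with a median of -0.05. That is 4%, against 1.37% of all genes. The groups did not overlap for 10 of the 25 (40%, against 23.8% of all genes), 4 higher and 6 lower. DESeq2 called 2 higher and 2 lower, 16% of 25, against 7.46% of all genes. TGM2 (ENSDARG00000074094), a transglutaminase that cross-links proteins and whose gene responds to retinoic acid, was at 169, 162 and 183 CPM in wild type and 45.5, 37.96 and 45.4 CPM in mutants. It fell by 1.99 ± 0.12 on the log2 scale (edgeR adjusted p = 0.00624) and was called in 5 of the 6 fits that leave out a library. ALDH1A2, which makes retinoic acid, was at 88.6, 96.8 and 76.1 and 152, 171 and 95.5 CPM, with overlap (log2 fold change 0.68 ± 0.23, edgeR adjusted p = 0.214).

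**Figure D3:**
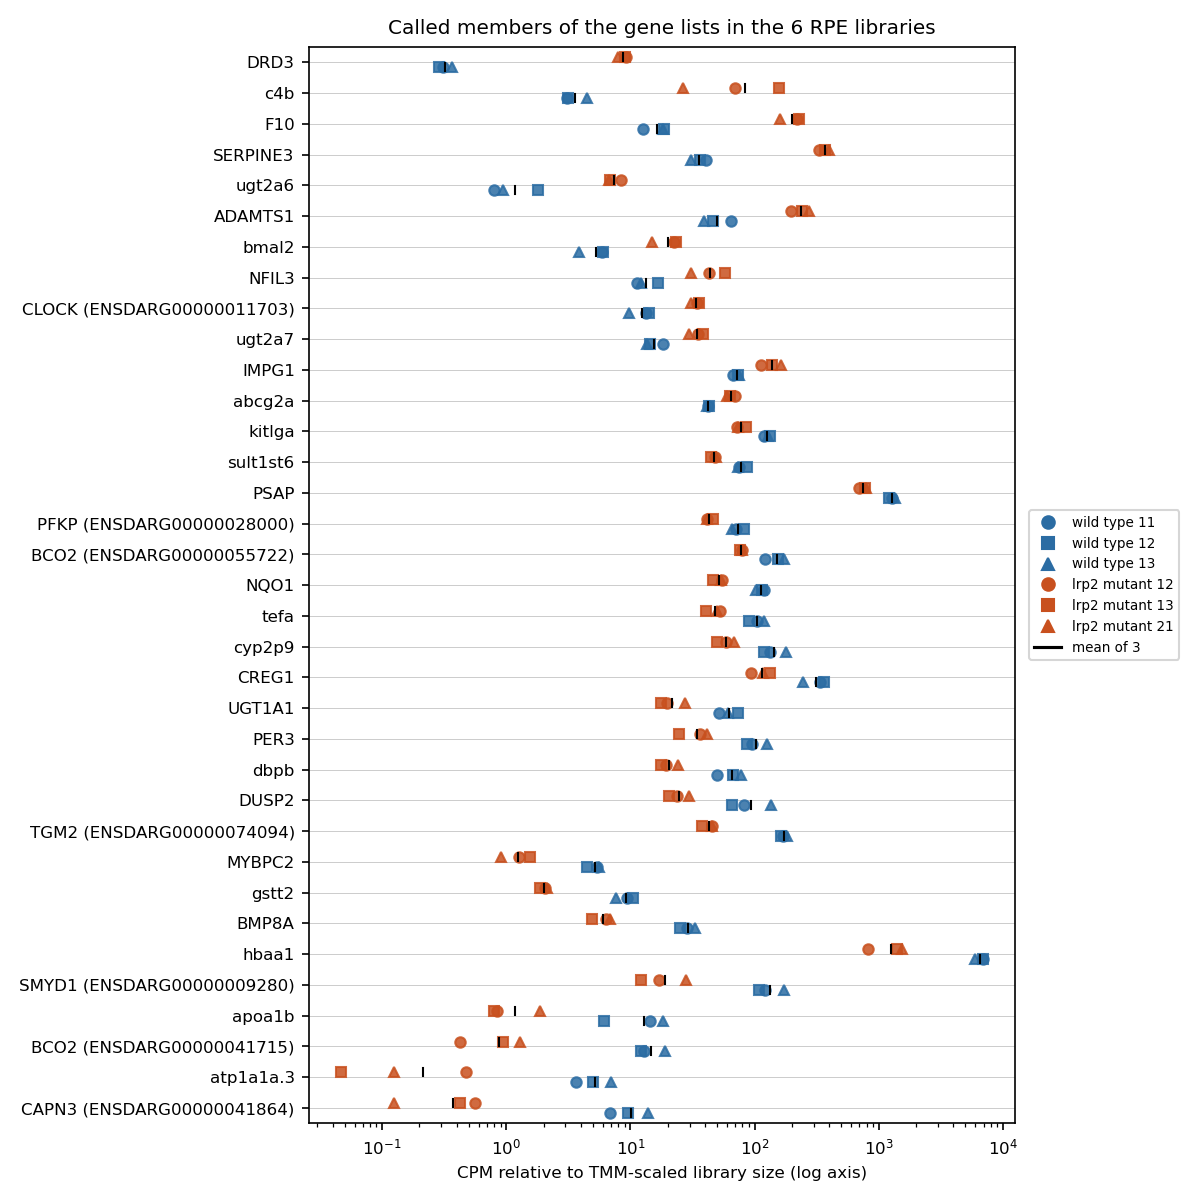
CPM (log axis) of 35 called list members with counts in every RPE library, wild type in blue and lrp2 mutants in orange, with a black tick at the mean of 3, ordered from the most raised to the most lowered. The groups are separate for each gene, and the spread is widest for c4b among the raised genes and for atp1a1a.3 among the lowered.

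Enzymes that conjugate and clear small molecules formed the list with the most tested genes and the most edgeR calls. Of 87 tested genes of sulfotransferases, glucuronosyltransferases, glutathione transferases and related detoxification, 3 were higher and 8 lower, 12.6% against 1.37% of all genes, and DESeq2 called 7 higher and 17 lower, 25.8% of 93. The median was -0.31, also with genes at a count of 0 put at their bound. The sulfotransferase sult3st3 was at 7.29, 7.65 and 17.0 CPM in wild type and at 0 in all 3 mutants, which is at least 231-fold lower, taking a floor of 3 counts over the group. Its neighbour in the family, sult3st2, was at 4.71, 4.56 and 11.4 CPM and again at 0, at least 149-fold lower (edgeR adjusted p = 0.0306 and 0.0365). The floor covers counting error only.

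Another sulfotransferase, sult1st7, was at 4.84, 8.46 and 9.90 CPM in wild type and 0.235, 0.0941 and 0 CPM in mutants (log2 fold change -6.11 ± 0.81, edgeR adjusted p = 0.0324). Reads of near-identical sult and ugt copies may have been divided among them by the authors' counting, so single members are uncertain. NQO1, a quinone reductase, was at 119, 115 and 102 and 54.7, 46.6 and 53.9 CPM and fell by 1.11 ± 0.12 on the log2 scale (edgeR adjusted p = 0.0211). The glutathione transferase gstt2 was at 9.33, 10.5 and 7.70 CPM in wild type and 2.07, 1.88 and 2.15 CPM in mutants, a fall of 2.17 ± 0.21 (edgeR adjusted p = 0.0183).

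UGT1A1, cyp2p9 and sult1st6 were called lower too, by 1.52, 1.29 and 0.73 on the log2 scale (edgeR adjusted p = 0.0372, 0.0454 and 0.0423). The glucuronosyltransferases ugt2a6 and ugt2a7 and the efflux pump abcg2a were higher by 2.63, 1.15 and 0.61 (edgeR adjusted p = 0.0353, 0.0388 and 0.0483). The list gave 4 higher and 9 lower calls without mutant 21 and 0 in both directions when any other library was left out or the rod level was a covariate.

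Of the 32 lists, that of clock genes had the highest share of members that did not overlap between the genotypes. Their transcription loop runs over a day: CLOCK and BMAL proteins activate the period and cryptochrome genes, whose products repress them, with REV-ERB and ROR receptors and the factors DBP, TEF and NFIL3 in linked loops. Of 42 members, all tested, 3 were higher and 3 lower (14.3%, against 1.37% of all genes), and 32 (76.2%) did not overlap between the groups, 14 higher and 18 lower, against 23.8% of all genes. The labels give no time of collection, so a difference of genotype and a difference in time of day between the groups cannot be told apart.

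On the side of activators, CLOCK (ENSDARG00000011703) was at 13.4, 14.3 and 9.80 CPM in wild type and 34.3, 35.4 and 30.8 CPM in mutants, a rise of 1.42 ± 0.17 on the log2 scale (edgeR adjusted p = 0.0270). Its partner bmal2 was at 5.95, 6.03 and 3.88 and 22.5, 23.3 and 14.8 CPM (log2 fold change 1.93 ± 0.26, edgeR adjusted p = 0.0340). NFIL3, a repressor that opposes DBP and TEF, was at 11.4, 16.6 and 12.1 and 42.9, 57.4 and 30.6 CPM (log2 fold change 1.71 ± 0.27, edgeR adjusted p = 0.0477). Each mutant library exceeded each wild-type library for these genes.

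On the other side, PER3, a period repressor, was at 96.3, 86.2 and 126 CPM in wild type and 36.7, 24.7 and 41.5 CPM in mutants, a fall of 1.58 ± 0.24 on the log2 scale (edgeR adjusted p = 0.0420). The output factor dbpb was at 50.3, 67.7 and 78.1 and 19.3, 17.5 and 24.3 CPM (log2 fold change -1.68 ± 0.21, edgeR adjusted p = 0.0295). For tefa the levels were 105, 89.7 and 119.7 and 53.1, 40.7 and 49.9 CPM (log2 fold change -1.13 ± 0.16, edgeR adjusted p = 0.0353). Mutant 13 was the lowest library for each of the 3.

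Several other members lay as far apart without passing the threshold, and these were named after their values were seen. PER1 (ENSDARG00000056885) was at 33.5, 56.7 and 60.5 CPM in wild type and 7.24, 2.87 and 10.3 CPM in mutants (log2 fold change -2.88 ± 0.49, edgeR adjusted p = 0.0519). NR1D1, a REV-ERB receptor, was at 13.1, 57.3 and 85.4 and 4.99, 2.26 and 9.26 CPM, wild type 11 being much nearer to the mutants than the other 2 (log2 fold change -3.23 ± 0.80, edgeR adjusted p = 0.117). An NFIL3 relative, nfil3-5, was at 32.0, 99.2 and 51.0 and 412, 538 and 267 CPM (log2 fold change 2.74 ± 0.48, edgeR adjusted p = 0.0545).

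The count of clock calls changed with the libraries used. Without mutant 21 there were 4 higher and 9 lower, without wild type 12 there were 1 and 0, and without any of the other 4 libraries there were 0. DESeq2 called 10 higher and 13 lower, 54.8% of the 42, against 7.46% of all genes. In the other tissues, fitted on their own libraries, 8 clock genes were higher and 5 lower in mutant retina and 1 was higher and 7 lower in mutant sclera with choroid, where 19.5% and 6.64% of all genes tested were called. By edgeR the difference between RPE and retina in the mutant effect was called for 0 of 42 clock genes (16 at an unadjusted p under 0.05, and 6 by DESeq2, which called 5.00% of all genes), and that between RPE and sclera with choroid for 1, NFIL3 (2 at an unadjusted p under 0.05, and 1 by DESeq2, which called 2.60% of all genes).

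**Figure D4:**
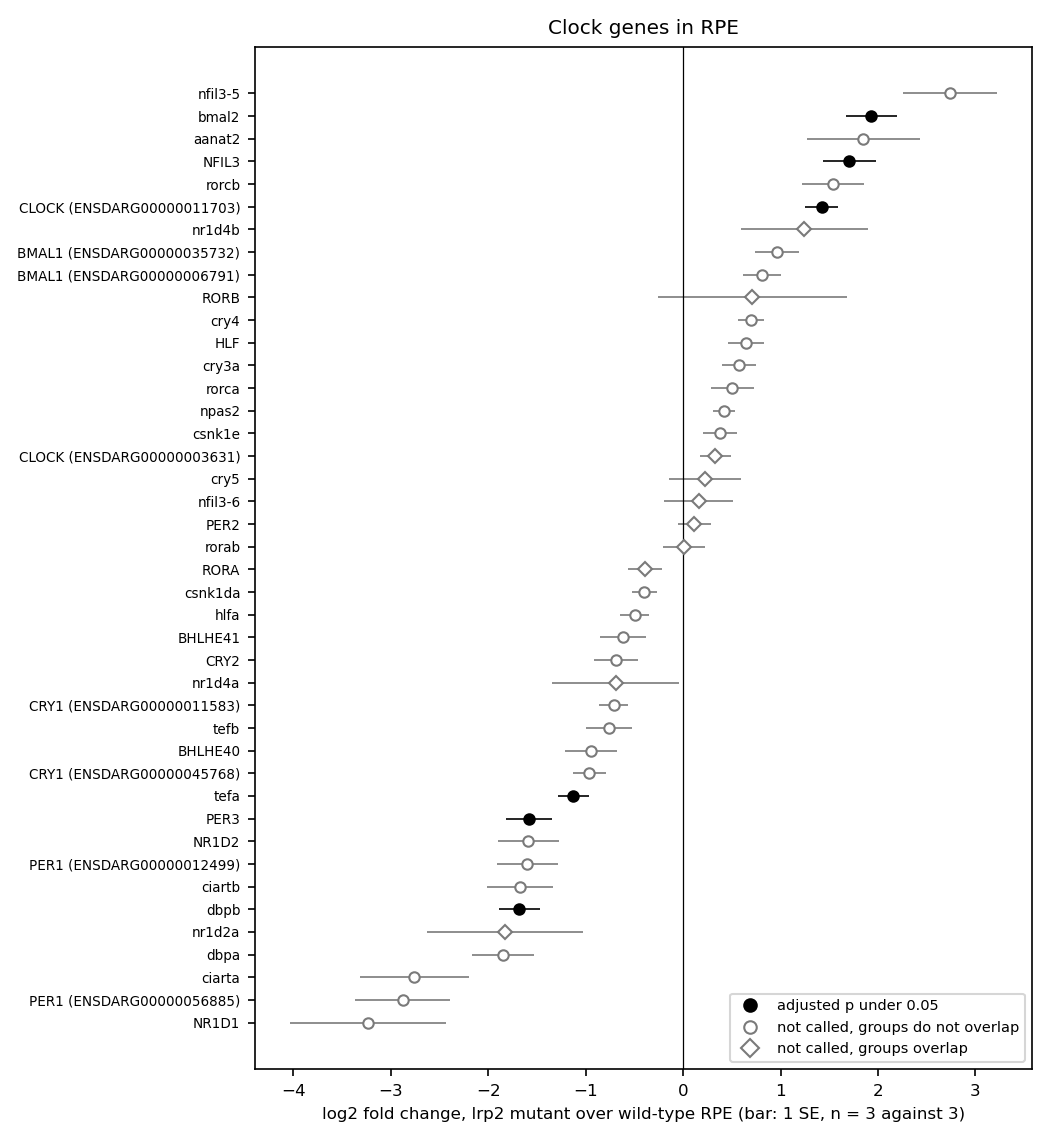
Log2 fold change of the 42 clock genes, lrp2 mutant over wild-type RPE, with bars of 1 SE (n = 3 against 3). Filled points are the 6 called genes, open circles are genes whose groups do not overlap, and diamonds are genes whose groups overlap. The PER1, PER3, NR1D1, NR1D2, DBP and TEF genes lie left of 0 and the CLOCK, BMAL and NFIL3 genes right.

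Blood transcripts were lower in mutant RPE. The adult alpha globin hbaa1 was at 17802, 18630.0 and 14827 TPM in wild type 11, 12 and 13 and at 2416, 4125 and 4286 TPM in mutants 12, 13 and 21. Mutants held a fraction of the wild-type level in every library, a fall of 2.399 ± 0.26 on the log2 scale (edgeR adjusted p = 0.0236). Over the list, 0 of 31 tested genes were higher and 2 lower (6.45%, against 1.37% of all genes). A negative fold change was found for 26, and for 9918 of all 21064 genes, and the median was -0.76. The groups did not overlap for 18 (58.1%, against 23.8% of all genes), 2 higher and 16 lower. DESeq2 called 0 higher and 10 lower, 31.25% of 32, against 7.46% of all genes. The summed level was 20814, 22535 and 17965 TPM in wild type and 4117, 6910.4 and 6296 TPM in mutants. The log2 ratio of these sums was -1.82, and -0.63 without hbaa1. CREG1, the other called gene, encodes a secreted glycoprotein that lysosomes also hold, and was at 337, 362 and 247 and 94.4, 134 and 117 CPM (log2 fold change -1.45 ± 0.20, edgeR adjusted p = 0.0353).

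Endothelial genes, by contrast, summed to 3364, 4960.5 and 3225 TPM in wild type and 3982, 4879.9 and 3107 TPM in mutants, with overlap. By edgeR 0 of 34 were called, by DESeq2 2 higher and 4 lower (17.6% of 34), and the median was -0.11. The vascular receptor kdrl was at 1291, 1658 and 1169.9 and 1075, 1364 and 907 CPM. hbaa1 was far lower in the other tissues, at means of 147 TPM in wild-type and 132 TPM in mutant retina and 465 and 198 TPM in sclera with choroid. Whether the amount of blood left in the tissue or its vessels differed was not tested.

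Most muscle and lens genes had lower values in mutants, and few passed the test. Of 63 tested muscle genes 0 were higher and 2 lower by edgeR (3.17%, against 1.37% of all genes). A negative fold change was found for 58, and for 9918 of all 21064 genes, and the median was -1.76. DESeq2 called 2 higher and 28 lower, 45.5% of 66, against 7.46% of all genes. SMYD1 (ENSDARG00000009280), a methyltransferase of muscle, was at 121, 109 and 173 and 17.1, 12.3 and 27.9 CPM (log2 fold change -2.81 ± 0.35, edgeR adjusted p = 0.0295). MYBPC2, a myosin-binding protein of fast muscle, was at 5.42, 4.51 and 5.61 and 1.27, 1.55 and 0.909 CPM (log2 fold change -2.06 ± 0.30, edgeR adjusted p = 0.0393). Of the contractile genes, the actin ACTA1 (ENSDARG00000055618) lay at 5.94 to 43.9 TPM in wild type and 2.47 to 6.09 TPM in mutants. Myoglobin, mb, went the other way, at 731, 716 and 933 and 1193, 1328 and 1771 CPM (log2 fold change 0.85 ± 0.20, edgeR adjusted p = 0.0994). With it the muscle list summed to 2776, 2110.2 and 3336 TPM in wild type and 2857, 3239.9 and 3889 TPM in mutants. Of 50 tested lens genes 49 had a negative fold change (median -0.86), against 9918 of all 21064 genes. The lens list summed to 425, 340 and 543 TPM in wild type and 330, 343 and 137 TPM in mutants, with overlap. In retina its mean sum was 21593 TPM in wild type and 675 TPM in mutants. Whether unlike amounts of lens were left in the dissected tissue was not tested. The lens gene CAPN3 (ENSDARG00000041864) was the 1 called, lower (6.80, 9.55 and 13.8 against 0.564, 0.423 and 0.124 CPM, log2 fold change -4.76 ± 0.56, edgeR adjusted p = 0.0270).

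Other lists of cells and states held few calls. Of the rod genes, IMPG1, a proteoglycan of the matrix between photoreceptors and RPE, was at 67.3, 73.4 and 74.3 and 114, 139 and 165 CPM and rose by 0.96 ± 0.16 on the log2 scale (edgeR adjusted p = 0.0482), while the rod sums of the groups overlapped. The lists of cones, inner retina, epithelium, fibroblast matrix, cartilage, iridophores, macrophages, inflammation, proliferation, heat shock and cholesterol synthesis had 0 called genes by edgeR. DESeq2 called 0 in proliferation and at most 13 in any of the others, the 13 being 11 higher and 2 lower genes of inflammation (23.2% of 56). Of these lists the share was highest for cartilage, with 6 higher and 4 lower genes (30.3% of 33). Their medians lay between -0.42 (iridophores) and 0.51 (cones). In the proliferation list 59 of 63 genes had a positive fold change, with a median of 0.47, as had 11146 of all 21064 genes. The groups did not overlap for 6 of the 63 (9.52%, against 23.8% of all genes), 5 higher and 1 lower. The list summed to 1220, 714 and 1258 TPM in wild type and 1632, 1079 and 2475 TPM in mutants, with overlap. In sclera with choroid 54 of 64 had a positive fold change, and in retina 27 of 63. The medians of cones, inner retina and epithelium changed sign in some alternatives, while that of proliferation did not. DUSP2, a phosphatase of MAP kinases among the immediate early genes, was at 81.8, 65.4 and 136 and 23.6, 20.5 and 29.5 CPM (log2 fold change -1.94 ± 0.30, edgeR adjusted p = 0.0454). PFKP (ENSDARG00000028000), a phosphofructokinase of glycolysis, was at 71.1, 82.2 and 66.4 and 41.2, 46.0 and 41.2 CPM (log2 fold change -0.78 ± 0.12, edgeR adjusted p = 0.0438).

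Beyond the lists, the largest rises and falls with a symbol, separate groups and a mean of at least 5 CPM in the higher group were taken, 20 in each direction. The claudin gene cldn26, a tight-junction protein, had 2 counts over the 3 wild-type libraries and 420 over the mutants (5.79, 6.26 and 6.78 CPM), a ratio of 197 with a 95% exact binomial interval of 54.2 to 1633 that covers counting error only. Next after it, DRD3 and c4b aside, came si:ch211-64i20.6 (0.178, 0 and 0.210 against 7.76, 6.87 and 5.29 CPM) and PKHD1L1 (ENSDARG00000040004), a large membrane receptor-like protein (0.400, 0.380 and 0.210 against 8.94, 7.48 and 3.80 CPM). The most abundant of the 20 apart from SERPINE3 and F10 was si:ch211-114l13.11, at 5.73, 13.9 and 23.9 and 217, 229.7 and 141 CPM. igldcp and NXPH2 (ENSDARG00000063224), a neurexophilin, were at 2.04, 1.71 and 0.943 and 2.93, 2.80 and 2.78 CPM in wild type and 20.7, 24.8 and 17.9 and 14.8, 18.4 and 24.3 CPM in mutants.

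Of the falls, nlrc11, a gene of the large NLR family of innate immune receptors, had the lowest adjusted p. It was at 50.7, 66.0 and 83.6 CPM in wild type and 0.376, 0.329 and 0.289 CPM in mutants, a log2 fold change of -7.63 ± 0.28 (edgeR adjusted p = 0.00165). gfus.3 was at 14.8, 4.80 and 21.3 and 0.0941, 0.0941 and 0 CPM, and si:ch211-181d7.2 at 25.6, 37.4 and 53.5 and 0.564, 0.376 and 0.0413 CPM. The serpin serpinb14 was at 75.5, 77.7 and 94.3 and 7.20, 6.35 and 11.2 CPM (log2 fold change -3.32 ± 0.25, edgeR adjusted p = 0.00726), and sclera with choroid held 239 TPM of it in wild type and 5.24 TPM in mutants. NLR genes are near-identical copies whose reads may be divided, so single members are uncertain.

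Whether the effect of genotype was particular to RPE was asked in the other tissues. Of the 121 genes higher in mutant RPE, 52 (43.0%) were also called higher in mutant retina and 47 (38.8%) in mutant sclera with choroid. These are 3.19% of the 1632 genes higher in retina and 7.90% of the 595 higher in sclera with choroid. Tested there were 20065 and 21159 genes, with 101 and 119 of the 121 among them. In either direction 19.5% of all tested genes were called in retina and 6.64% in sclera with choroid. Of the 168 lower genes, 60 (35.7%) were lower in retina and 66 (39.3%) in sclera with choroid. That is 2.64% of the 2277 and 8.16% of the 809 genes lower there. Of the 168, 137 were tested in retina and 157 in sclera with choroid, and 6 were called higher in retina and 0 in sclera with choroid. In both tissues 37 of the higher and 34 of the lower genes were called in the same direction. Called in neither were 54 higher and 72 lower genes, with genes not tested there counted among them. Among those called in all 3 tissues were DRD3, F10, SERPINE3, nlrc11 and gstt2.

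The difference between tissues was tested in a fit of 24 libraries. The mutant effect in RPE differed from that in retina for 459 of 23849 genes (1.92%) and from that in sclera with choroid for 163 (0.683%). The first count was 767 without mutant RPE 21, and 293 and 240 without mutant retina 12 and 13. The other was 355 without mutant RPE 21 and 84 to 101 without wild-type RPE 13, mutant RPE 12, mutant sclera 11 or 12, or wild-type sclera 11. Of the 289 genes called in RPE, 25 higher and 47 lower ones had an effect further from 0 than in retina, and 20 higher and 24 lower ones than in sclera with choroid. Of the named genes that differed from both, NQO1 had the lowest adjusted p, with its fall in RPE set against log2 fold changes of 0.34 in retina and 0.20 in sclera with choroid (edgeR adjusted p of the differences = 0.00142 and 0.00399). The rise of igldcp also differed from both (adjusted p = 0.0185 and 0.0419).

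PSAP differed from retina, where its log2 fold change was -0.02 (edgeR adjusted p of the difference = 0.00412). NXPH2 and ADAMTS1, both raised in RPE, had log2 fold changes of -0.22 and -0.50 in retina (adjusted p of the difference = 0.00134 and 0.0114). For the visual cycle list the median log2 fold change was 0.0012 in retina and -0.05 in sclera with choroid, against -0.43 in RPE. Of its abundant members, RDH10 (ENSDARG00000058730), a retinol dehydrogenase, differed from sclera with choroid (adjusted p = 0.00324), and so did rbp4l (adjusted p = 0.0213). The difference for RPE65 (ENSDARG00000007480) was not called (adjusted p = 0.150 against retina and 0.441 against sclera with choroid).

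**Figure D5:**
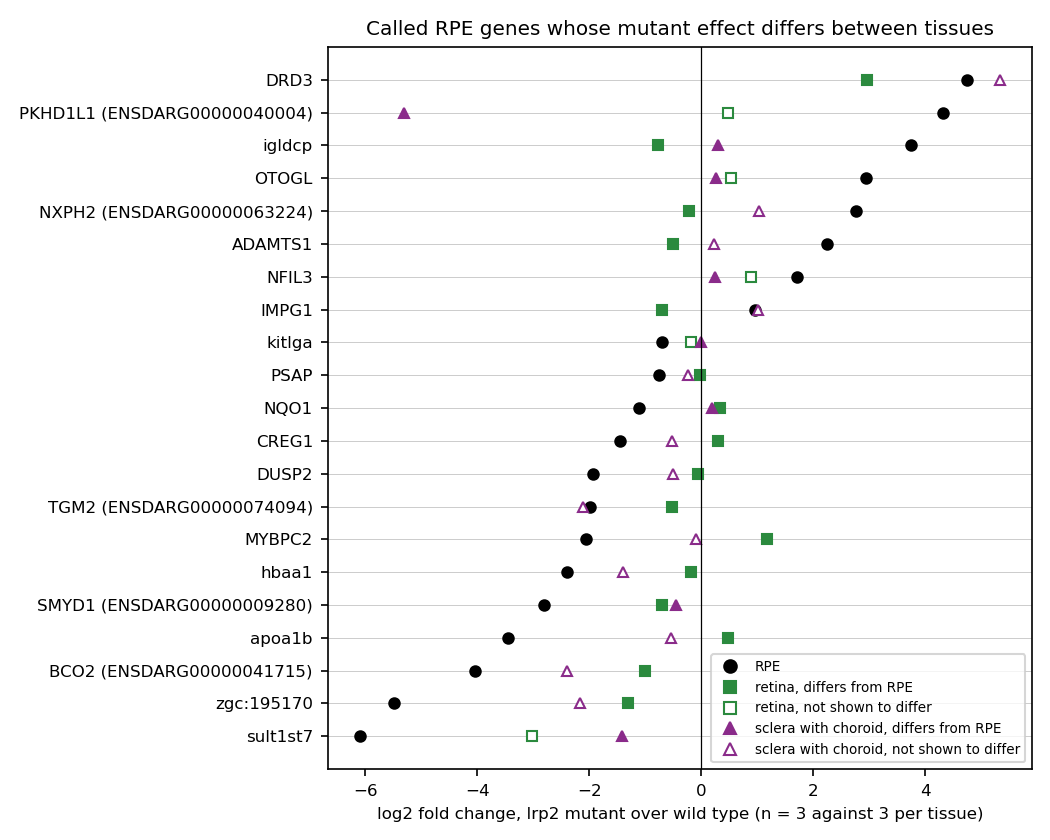
Log2 fold change, lrp2 mutant over wild type (n = 3 against 3 per tissue), of 21 called RPE genes in RPE (black), retina (green squares) and sclera with choroid (purple triangles), from the fit of 24 libraries. Filled squares and triangles differ from RPE at an adjusted p under 0.05. NQO1, igldcp and SMYD1 have both symbols filled, and the retina symbols of NXPH2, ADAMTS1 and IMPG1 lie left of 0 while their RPE points lie right.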

How the data were processed

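Eyes were dissected, stored in RNAlater and extracted with Trizol, and libraries were made with a low-input Illumina protocol, per the labels' protocols. Bowtie2, HISAT and build GRCz10 are named per the submitters' processing notes, with versions, roles, counter and strand setting not given in the sources used here. The authors deposited expected counts per gene, which were rounded here, and the authors deposited TPM, used for levels; TPM are set by all transcripts of a library, so a change in abundant ones moves the rest. Other tables of the series, the FPKM, transcript and larval ones among them, were not used here. Of 31916 identifiers 26108 carry a symbol; identifiers without one hold 1.82% of RPE counts. The table gives many genes the capitalized symbol of the human orthologue, and copies that share it are told apart by identifier.

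Groups come from the labels. Counts were fitted in R 4.3.3 with edgeR 4.0.16 (filterByExpr, TMM scaling, robust quasi-likelihood F test, Benjamini-Hochberg adjustment over all genes tested, called under 0.05), the 3 mutant against the 3 wild-type RPE libraries. SEs were taken from the F statistic. Differences between tissues are interaction contrasts in a fit of the 24 libraries of 1 month. The alternatives were DESeq2 1.42.0, its size factors, no filter, limma 3.58.1 on log2(TPM + 1) or log2(TPM + 0.1), the 24-library fit, each library left out, a replicate block, and the summed rod or epithelium level as covariate. The edgeR script was tested on simulated data. Pairs of libraries of 1 RPE group differed beyond sampling noise (chi-square per degree of freedom 48.6 to 118), so none was deposited a second time.

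The rule for named genes takes the 20 highest and 20 lowest called genes with a symbol, separate groups and at least 5 CPM in the higher group; every called member of 32 gene lists; members of the visual cycle, melanin and megalin lists above 50 CPM; the 3 most abundant of other lists; and the 5 tested neighbours on each side of lrp2a. Of these genes a selection is printed, made with their values known, and 1 called list member is not reported here. Genes outside this rule are said to have been named after their values were seen. The members and lists were chosen with earlier results of these data known, so counts over a list describe these libraries and are not independent evidence. Neighbours come from the gene order of assembly GRCz12tu, with no coordinates taken from it.

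Other tissue in RPE was measured as the summed TPM of rod or epithelium genes in percent of that sum in retina, or in sclera with choroid, of the same genotype. A gene's level there times the mean share gives the amount said to come at that share. Genes of fibroblast matrix, cartilage and inner retina gave larger shares, so such an amount is no upper bound. Cone genes gave a smaller mean share of retina than rod genes, and for ifi27.2 the amount exceeds the measured wild-type level. Such an amount can therefore also be too large. Exact binomial intervals at 95% and the floor of 3 counts over a group cover counting error only.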

Additional observations from a re-analysis of the deposited data

Results flagged for a closer look

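The mutant effect in RPE differed from that in another tissue, by an interaction term in the edgeR fit of 24 libraries, for the genes below. Each value is the log2 fold change of mutant over wild type in RPE minus that in the other tissue, with 3 libraries per group. The genes had been called in RPE, so that large RPE effects were favoured by how they were chosen. No cause was tested.

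Against retina, 4 named genes that were higher in mutant RPE had a greater effect there: igldcp by 4.53 (edgeR adjusted p = 0.0185), NXPH2 by 2.98 (0.00134), ADAMTS1 by 2.75 (0.0114) and IMPG1 by 1.66 (0.0315). DRD3, called higher in both tissues, differed by 1.78 (adjusted p = 0.0360). Of genes lower in mutant RPE, the globin hbaa1 differed by -2.203 (adjusted p = 0.0162). CREG1, a lysosomal and secreted protein gene in the red blood cell list, differed by -1.74 (0.00397). The muscle genes SMYD1 and MYBPC2 differed by -2.10 (adjusted p = 0.0417) and -3.22 (0.00599). The carotenoid oxygenase BCO2 (ENSDARG00000041715) differed by -3.02 (adjusted p = 0.00662), apoa1b by -3.93 (0.00426) and zgc:195170 by -4.19 (0.0266). For PSAP the difference was -0.74 (adjusted p = 0.00412), for TGM2 -1.47 (0.0186), for DUSP2 -1.88 (0.0236) and for NQO1 -1.45 (0.00142).

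Against sclera with choroid, the RPE effect was greater by 9.63 for PKHD1L1 (edgeR adjusted p = 0.0330), 4.50 for c4b (0.00895), 3.45 for igldcp (0.0419), 2.68 for OTOGL (0.0497) and 1.47 for NFIL3 (0.0460). It was lower by -4.68 for sult1st7 (adjusted p = 0.0412), -2.36 for SMYD1 (0.0124), -1.296 for NQO1 (0.00399) and -0.71 for kitlga (0.0337). The PKHD1L1 difference exceeds its log2 fold change in RPE, 0.942 to 4.80 over the alternatives, so the fit also gives a fall in sclera with choroid. How far low counts set the size of that fall was not tested, so the size of the difference is uncertain. In the fit of 24 libraries PKHD1L1 was not called in RPE (edgeR adjusted p = 0.0944). The difference of -9.23 for sult3st3 (adjusted p = 0.0461) rests on mutant RPE libraries at 0 counts, so its size depends on the prior count of the fit and is no measure of the change.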

How the results depend on the processing

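The count of 289 genes called in RPE became 1766 with DESeq2, 1994 in the fit of 24 libraries, 446 with the epithelium covariate, 39 with the rod covariate, 60 without wild type 13 and mutant 21, and 4 to 549 with 1 library left out. It stayed within 1.5 times with DESeq2 size factors (296), no filter (270) and limma on log2 TPM (227 to 401). On the limma scales 56.8 to 60.3% of calls were higher, against 41.9%, and the median of all genes moved from 0.03 to between 0.10 and 0.17. The difference from retina (459 genes) became 1148 with DESeq2 and 240 to 767 with 1 library left out. That from sclera with choroid (163) became 626 and 84 to 355. The cause was not tested.

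All 68 called genes that were followed kept their direction in the 17 alternatives (15 for 2 of them, left out by the TPM filter of the others). As they were chosen from calls in the same libraries, this is no independent check. Of these genes, 68 were called by DESeq2, 65 in the fit of 24 libraries, 13 with the rod covariate and 2 whichever library was left out. Of 49 uncalled genes 1 changed direction, ID1, to 0.0072 on each limma scale. A replicate block over libraries 12 and 13 called 0 genes by edgeR (2677 at an unadjusted p under 0.05), and the same 4 libraries with no block 94, an alternative added after the data were seen. Same-numbered libraries correlated at 0.022 and -0.37 in their deviations, and libraries of unlike number at -0.20 to 0.30. With only 2 same-numbered pairs, these values cannot decide whether a number marks a shared fish or day. The block gave 451 and 153 genes for the 2 differences between tissues. With 3 libraries a group, no exact permutation test of 1 gene can go below p = 0.1. Genes at a few counts have wide intervals, and a missed threshold does not show that a gene was alike in both groups.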

Other observations

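Several called genes outside the lists are known from the response to interferon or to foreign RNA. They were named after their values were seen, no enrichment was tested, and copies of the ifi27 family may share reads. The signal transducer stat2 was at 69.8, 68.6 and 70.17 CPM in wild-type RPE 11, 12 and 13 and 187, 201 and 171 CPM in mutants 12, 13 and 21 (log2 fold change 1.42 ± 0.11, edgeR adjusted p = 0.00726). For ifi27.1 the values were 10.4, 8.65 and 9.96 and 40.9, 41.9 and 34.9 CPM (2.02 ± 0.14, adjusted p = 0.00624), and for ifi27.2 3.16, 1.47 and 1.99 and 24.8, 14.8 and 20.5 CPM (3.18 ± 0.35, adjusted p = 0.0236). Sclera with choroid held more ifi27.1 than RPE, at means of 102 TPM in wild type and 241 TPM in mutants, with a log2 fold change there of 1.08 (edgeR adjusted p = 0.0782). At the mean epithelium share that amounts to 13.0 of 26.5 TPM in wild-type and 39.3 of 120 TPM in mutant RPE. For ifi27.2 it amounts to 12.0 TPM, more than the wild-type RPE mean of 4.52 TPM, and to 17.5 of 46.1 TPM in mutants. The share is thus too large for this gene in wild type. For stat2 it amounts to 2.76 of 17.5 TPM and 4.64 of 53.6 TPM. The part of carry-over in these differences was not tested.

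ZNFX1, a helicase that senses viral RNA in mammals, was at 12.6, 10.4 and 11.5 and 37.0, 47.6 and 35.2 CPM (1.80 ± 0.16, edgeR adjusted p = 0.0141). The ubiquitin ligase gene rnf213b was at 19.02, 16.3 and 14.6 and 63.8, 75.9 and 47.6 CPM (1.91 ± 0.20, adjusted p = 0.0223). The class I gene mhc1zaa was at 15.7, 10.5 and 15.1 and 33.5, 47.7 and 38.7 CPM (1.53 ± 0.21, adjusted p = 0.0353), with a log2 fold change in sclera with choroid of 1.102 (adjusted p = 0.0728). Each mutant library exceeded each wild-type library for these 6 genes, as for 11.2% of all tested genes. The 6 were picked from called genes, so such separation was favoured by the choice and is no further evidence. In mutant retina, fitted on its own libraries, stat2 had a log2 fold change of 0.12 (edgeR adjusted p = 0.305) and ZNFX1 one of -0.88 (adjusted p = 0.0220). In the inflammation list 0 of 52 genes were called by edgeR and 13 of 56 by DESeq2 (23.2%, against 7.46% of all genes), 37 had a positive fold change and the median was 0.31, against 0.03 for all genes.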
